A study of Homo sapiens with 11 samples.

Results

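The mRNAs of 10 tubulin genes were followed by RNA sequencing in SK-MEL-103 cells, an established human melanoma line, under drugs that the study used to bring these cells into senescence. The set was taken by gene name, with earlier results of these data known. It holds 3 α-tubulin genes (TUBA1A, TUBA1B, TUBA1C), 6 β-tubulin genes (TUBB, TUBB2A, TUBB2B, TUBB3, TUBB4B, TUBB6) and the γ-tubulin gene TUBG1. These are 10 of the 61566 genes to which reads were summed, and all 10 were among the 17039 genes with enough reads to be tested. Cells were kept for 6 days with 0.5 µM tozasertib (3 samples, replicates 1, 2 and 4, since replicate 3 was not analysed here), with 0.25 µM etoposide (4 samples) or with the solvent DMSO (4 samples). Fresh medium with drug was given on day 3. Tozasertib inhibits the Aurora kinases, which drive mitosis, and etoposide is a poison of topoisomerase II that leaves breaks in DNA. The sources do not state that replicates came from separate cultures. The p-values here therefore cover the variation among these libraries, and that variation could be technical.

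Tubulin is the building block of microtubules, the hollow filaments that form the mitotic spindle and serve as tracks for transport. Each unit is a dimer of an α and a β chain, folded by the chaperonin CCT and by tubulin cofactors, while γ-tubulin sits in a ring complex from which new microtubules grow. Vertebrate cells carry several near-identical α and β genes, and they hold the amount of free dimer steady by autoregulation: the factor TTC5 reads the first residues of a nascent tubulin chain and, through SCAPER and the CCR4-NOT complex, has the mRNA that is being translated destroyed.

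The start of the coding sequence is therefore shown first, because it holds the bases that this control reads out as protein. Each line gives the first 21 coding bases of the canonical transcript, 5′ to 3′, with the first 4 codons in capitals.
TUBA1A: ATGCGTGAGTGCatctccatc
TUBA1B: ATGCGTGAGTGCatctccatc
TUBA1C: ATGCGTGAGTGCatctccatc
TUBB: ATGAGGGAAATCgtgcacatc
TUBB2A: ATGCGCGAGATCgtgcacatc
TUBB2B: ATGCGTGAGATCgtgcacatc
TUBB3: ATGAGGGAGATCgtgcacatc
TUBB4B: ATGAGGGAAATCgtgcacttg
TUBB6: ATGAGGGAGATCgtgcacatc
TUBG1: ATGCCGAGGGAAatcatcacc
The 3 α genes shared the same 12 bases in capitals. The 6 β genes had 4 different spellings of these 12 bases, shared between TUBB and TUBB4B and between TUBB3 and TUBB6. TUBG1, whose product builds the ring complex, began with other bases.

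The 10 genes lie on 6 chromosomes of GRCh38. The α genes stand side by side on chromosome 12, with TUBA1B at 49127782 to 49131397 and TUBA1A at 49184686 to 49189080, both on the minus strand, and TUBA1C at 49188736 to 49274600 on the plus strand. Of the β genes 3 are on chromosome 6, with TUBB2A at 3153497 to 3157544, TUBB2B at 3223324 to 3231730 (both minus) and TUBB at 30717435 to 30725538 (plus). TUBB3 is at 89921392 to 89938761 on chromosome 16, TUBB4B at 137241287 to 137243707 on chromosome 9, TUBB6 at 12307669 to 12344320 on chromosome 18 and TUBG1 at 42609641 to 42615238 on chromosome 17, all on the plus strand. The canonical transcript had 4 exons in each α and β gene and 11 in TUBG1.

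How alike the genes are limits what a read can tell. Coding sequences were 95.9% to 97.2% identical between the 3 α genes and 81% to 98.1% identical between the 6 β genes, against 55.1% to 57.4% between α and β genes and 52.3% to 55.7% between TUBG1 and the rest. The most alike were TUBB2A and TUBB2B, with 25 differing bases in 1338, and TUBA1A and TUBA1B, with 38 in 1356. The last 60 coding bases of TUBB2A and TUBB2B are shown as an example, since this end encodes the acidic tail by which most tubulins differ. Capitals mark bases that differ between them.
TUBB2A: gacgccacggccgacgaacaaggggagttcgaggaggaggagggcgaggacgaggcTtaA
TUBB2B: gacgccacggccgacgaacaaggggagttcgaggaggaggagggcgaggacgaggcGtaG
These ends differed at 2 bases, in the last codon before the stop (gct and gcg) and in the stop codon (taa and tag). Both ends encode the same amino acids, so the tails of these proteins do not differ here.

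Reads were 72 bases long, so every 72-base window of the main transcript of each gene was searched for in the transcripts of all other genes, on the same strand. TUBB6 had no window in another gene. The transcript searched held 87.8% of the reads of TUBB6, 46.9% of those of TUBA1C and at least 89.0% of those of each other gene, and the remaining transcripts were not searched. TUBB shared 9.7% of its windows, nearly all with a pseudogene, and none with another of the 10 genes, and TUBB4B shared 4.8% with other members. For TUBA1A 33.0% of the windows also stood in another member, for TUBA1B 43.9% and for TUBA1C 32.3%. The shares were highest for TUBB2A (56.3%) and TUBB2B (47.0%), each with the other. TUBG1 shared 21.1% with TUBG2, its close paralog. TUBB3 shared 92.7% with the readthrough gene ENSG00000198211, which was given between 0 and 17 reads in a sample.

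**Figure D1:**
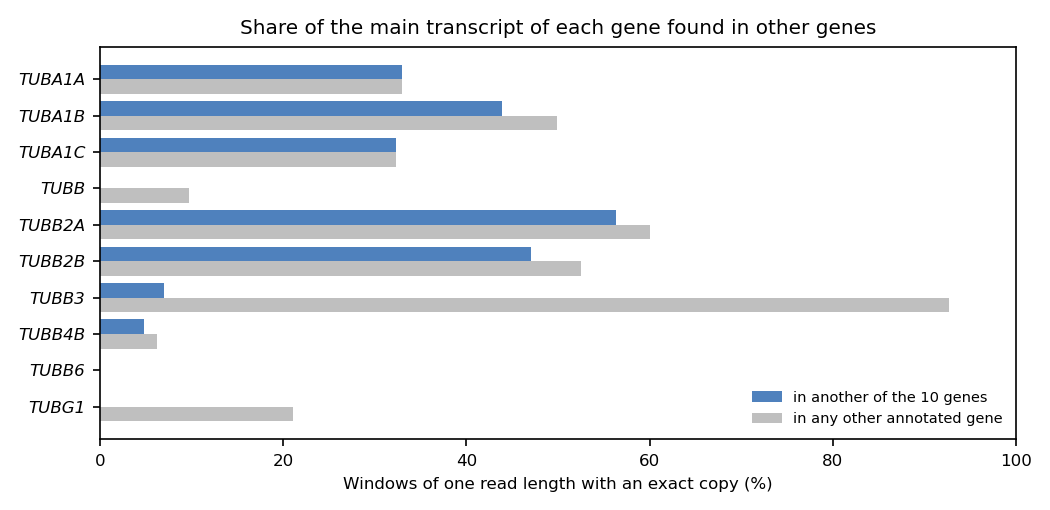
Share of the 72-base windows (%, x axis) of the main transcript of each tubulin gene (y axis) that have an exact copy in another of the 10 genes (blue) or in any other annotated gene (grey). TUBB6 has none, while TUBB2A and TUBB2B share 56.3% and 47.0% with other members, and the grey bar of TUBB3 (92.7%) comes from a readthrough gene with at most 17 reads in a sample.

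A read from a shared window was divided by Salmon, the program that made the estimates, according to the reads that fit only 1 gene. The split within TUBA1A, TUBA1B and TUBA1C and within TUBB2A and TUBB2B is therefore an estimate and uncertain, and summed values for these genes are given below beside the single ones. The 20 pseudogenes named after a member held at most 19 reads in a sample. TUBA1A and TUBA1C overlap on opposite strands by 345 exon bases. The antisense RNA TUBA1B-AS1, over 1571 exon bases of TUBA1B, held 24 to 254 reads in a sample. TUBB6, TUBB, TUBG1, TUBB2A and TUBB2B overlap antisense neighbours (AFG3L2, MDC1, RETREG3, BPHL and PSMG4) with 210 to 4185 reads in a sample. The libraries keep the strand, but whether strand was used in the counting is not given in the sources used here.

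The samples held 27882689 to 56534763 reads with tozasertib, 28547842 to 40170233 with etoposide and 28863009 to 32957818 with DMSO. CPM, the reads of a gene relative to all reads of its library, scaled between samples by TMM, is the unit below unless TPM is named. Of 8 melanocyte lineage markers, SOX10 averaged 379.1 CPM with tozasertib, 322.7 with etoposide and 513.5 with DMSO, MITF 9.25, 9.44 and 7.68, and MLANA was at 0 in every sample, while TYR, TYRP1 and DCT averaged at most 0.316 in a group. The pigment gene PMEL was higher with tozasertib, at 3.85 CPM, with 0.404 with etoposide and 0.325 with DMSO, and S100B was higher with both drugs (3.31 and 2.18 CPM, against 1.18 with DMSO). The sum of the 8 ran from 392.2 to 399.1 CPM with tozasertib, 329.1 to 348.4 with etoposide and 490.4 to 551 with DMSO. Of the markers of other cell types, the 6 immune genes summed to 43.5 to 48.4, 35.3 to 42.5 and 56.4 to 68.8 CPM in these groups, nearly all from CD68, with PTPRC at most at a mean of 0.191, and the 5 keratinocyte genes to 43.9 to 53.2, 51.8 to 54.3 and 47.9 to 66.6, nearly all from KRT10, with KRT5 at most at 0.144. The 6 fibroblast genes summed to 119.8 to 124.4 CPM with tozasertib, 138.2 to 154.8 with etoposide and 27.9 to 32.1 with DMSO, mostly from LUM and COL1A1. Of these 5 were tested, with 3 higher and 1 lower with tozasertib and 2 higher and 1 lower with etoposide. The shares over all tested genes were 30.0% higher and 29.5% lower with tozasertib, and 27.8% and 30.7% with etoposide. PDGFRB was the fibroblast gene called lower (1.44 and 1.15 CPM, against 3.002 with DMSO), and DCN averaged at most 0.0968. Their part in the tubulin values was not tested. DMSO replicate 1 had the highest CPM of the DMSO samples for all 10 tubulin genes and DMSO replicate 4 the lowest for all 10. TPM divides by the effective length of each transcript in that sample. In TPM, DMSO replicate 1 was the highest DMSO sample for 5 of the genes and the lowest for 4. DMSO replicate 4 was the highest for 1 and the lowest for 4.

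Both drugs lowered most tubulin mRNAs. With tozasertib 8 of 10 were lower than with DMSO and none was higher, against a background of 59.5% of all tested genes called in either direction, 29.5% called lower and 30.0% called higher. With etoposide 7 of 10 were lower and none was higher, against 58.5% called in either direction, 30.7% called lower and 27.8% called higher. The CPM of tozasertib and DMSO samples did not overlap for 8 of the 10 genes, as for 59.8% of all tested genes, and those of etoposide and DMSO samples did not overlap for 7, as for 51.2%. The median log2 fold change of the 10 genes was -1.12 with tozasertib and -0.89 with etoposide, while the median over all tested genes was 0.02 and -0.01. Calls were made with the quasi-likelihood test of edgeR at a Benjamini-Hochberg adjusted p under 0.05 over all 17039 genes. The only gene higher at an unadjusted p under 0.05 was TUBB2A with etoposide, and DESeq2 called none higher with tozasertib and 1, TUBB2A, with etoposide. Both comparisons share the DMSO samples. Without DMSO replicate 1 the counts were 8 lower and none higher with tozasertib, and 7 lower and 1 higher (TUBB2A) with etoposide. In bulk RNA a lower level per cell and fewer cells with a high level cannot be told apart.

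**Figure D2:**
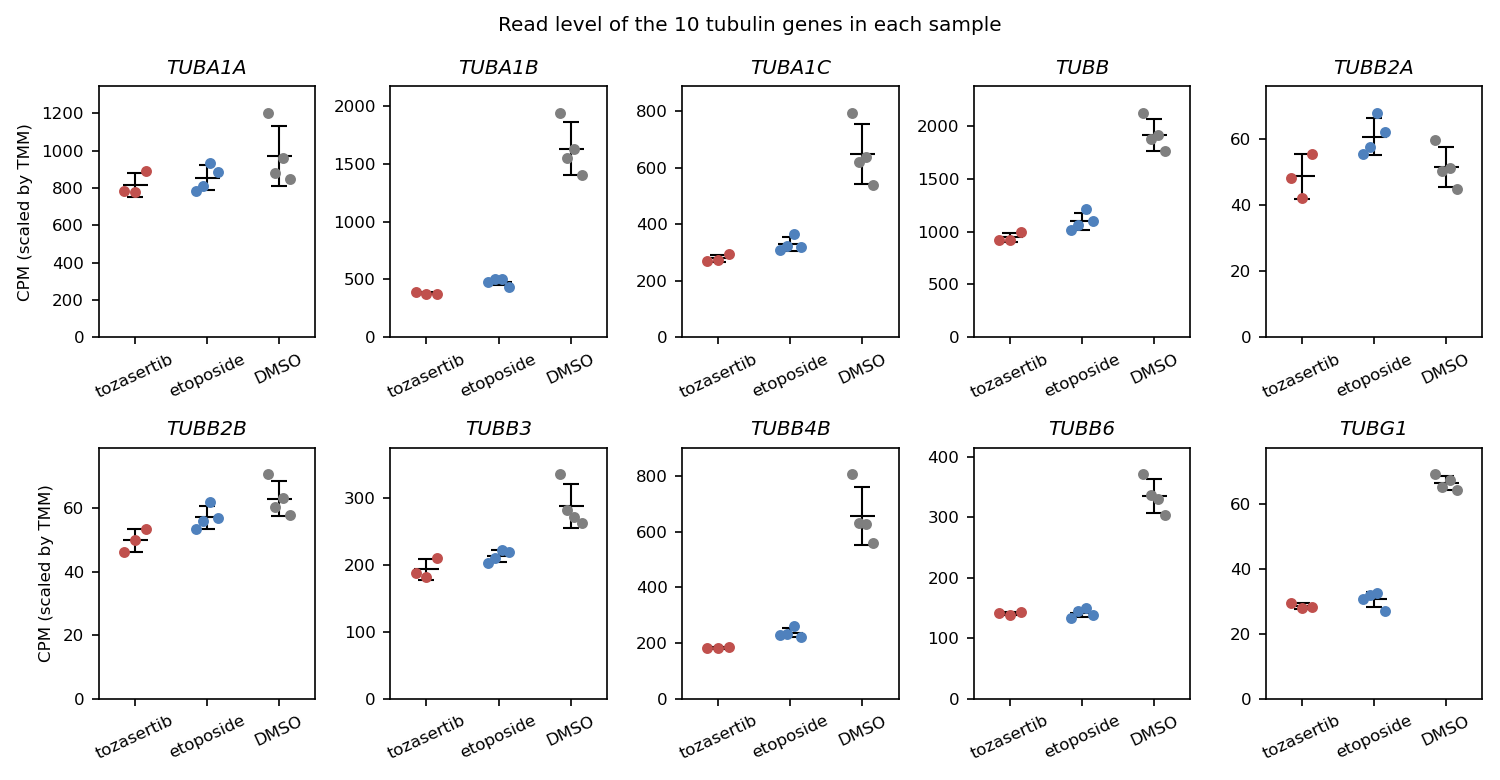
CPM (y axis, from 0, own scale for each gene) of the 10 tubulin genes in each sample, by group (x axis). Points are samples, the black bar is the mean and its whiskers are the SD. TUBA1B and TUBB4B lie far below the DMSO samples under both drugs, while the groups overlap for TUBA1A and TUBB2A.

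Among the α genes TUBA1B and TUBA1C fell and TUBA1A did not pass the test. TUBA1B, an α-tubulin made in most cell types, had 390.6, 377.1 and 374.7 CPM with tozasertib, 477.9, 500.3, 503.6 and 437.2 with etoposide, and 1943, 1553, 1632 and 1404 with DMSO. All drug samples were below all DMSO samples, by a wide gap. It was 4.29-fold lower with tozasertib (log2 fold change -2.10 ± 0.10 (SE), adjusted p = 1.58e-09 by edgeR) and 3.404-fold lower with etoposide (-1.77 ± 0.09, adjusted p = 2.49e-09 by edgeR). Only 1.92% of all tested genes had a lower fold change than TUBA1B with tozasertib, and 2.65% with etoposide.

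TUBA1C, a further ubiquitous α-tubulin, had 270.4, 272.7 and 293.1 CPM with tozasertib, 309.1, 323.9, 365.8 and 319.7 with etoposide, and 794.5, 621.8, 639.0 and 539.8 with DMSO. The drug samples again lay below every DMSO sample. The fold change was -1.22 ± 0.11 (SE) with tozasertib and -0.98 ± 0.10 with etoposide on the log2 scale (adjusted p = 6.31e-07 and 1.83e-06 by edgeR). Its reads were spread over several transcripts, of which TUBA1C-202 took 45.0% ± 0.954 with tozasertib, 44.9% ± 0.56 with etoposide and 48.7% ± 3.69 with DMSO (SD, n = 3, 4 and 4). A transcript with a retained intron (TUBA1C-203) took 25.9% ± 1.27, 27.3% ± 1.71 and 27.2% ± 2.41 of its reads in the same groups, which did not separate them.

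TUBA1A, the α-tubulin that dominates in neurons, had 783.4, 776.5 and 891.7 CPM with tozasertib, 785.8, 812.0, 936.0 and 887.2 with etoposide, and 1202, 877.3, 958.4 and 847.9 with DMSO. The groups overlapped, and the highest value was that of DMSO replicate 1. Its log2 fold change was -0.25 ± 0.11 (SE) with tozasertib and -0.18 ± 0.10 with etoposide (adjusted p = 0.0712 and 0.144 by edgeR). It was called lower with tozasertib when DMSO replicate 2 (adjusted p = 0.05 after rounding) or DMSO replicate 4 (adjusted p = 0.0288) was left out. In TPM its group means were 875.3 ± 64.6 with tozasertib, 863.1 ± 61.8 with etoposide and 865.9 ± 52.4 with DMSO (SD, n = 3, 4 and 4).

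The makeup of the α mRNA differed between the drug samples and DMSO. TUBA1A made up 47.7%, 48.0% and 50.1% of the α TPM with tozasertib, 43.9%, 43.7%, 45.6% and 47.4% with etoposide, and 27.6%, 25.4%, 26.3% and 26.6% with DMSO. TUBA1B made up 24.4%, 23.9% and 21.6% with tozasertib, 27.4%, 27.6%, 25.1% and 24.0% with etoposide, and 45.3%, 45.6%, 45.4% and 44.8% with DMSO. So TUBA1A was the leading α gene in every drug sample and TUBA1B in every DMSO sample. The ratio of TUBA1A to TUBA1B in TPM averaged 2.10 ± 0.198 with tozasertib, 1.75 ± 0.186 with etoposide and 0.585 ± 0.0219 with DMSO (SD). TUBA1C held 28.1% ± 0.208 with tozasertib, 28.8% ± 0.285 with etoposide and 28.3% ± 0.817 with DMSO. Each drug group overlapped with DMSO, and the tozasertib samples lay below the etoposide samples. These shares rest on the estimated division of shared reads. The sum of TUBA1A and TUBA1B, which does not depend on how reads were divided between them but still shares reads with TUBA1C, was 1174, 1154 and 1266 CPM with tozasertib, 1264, 1312, 1440 and 1324 with etoposide, and 3145, 2430, 2591 and 2252 with DMSO.

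Among the β genes TUBB4B and TUBB6 had the lowest fold changes. TUBB4B, a β-tubulin also found in cilia, had 182.5, 180.6 and 187.1 CPM with tozasertib, 229.9, 233.3, 259.3 and 222.9 with etoposide, and 805.7, 631.0, 627.6 and 559.4 with DMSO. No drug sample reached even the lowest DMSO sample. It was 3.58-fold lower with tozasertib (log2 fold change -1.84 ± 0.11 (SE), adjusted p = 8.72e-09 by edgeR) and 2.78-fold lower with etoposide (-1.47 ± 0.10, adjusted p = 2.29e-08 by edgeR).

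TUBB6, the β-tubulin whose main transcript had no shared window, had 141.9, 138.5 and 143.6 CPM with tozasertib, 133.5, 144.3, 149.5 and 138.8 with etoposide, and 371.0, 337.6, 329.8 and 303.8 with DMSO. Here the tozasertib samples lay within the etoposide range, and both groups were far below DMSO. Its log2 fold change was -1.25 ± 0.07 (SE) with tozasertib and -1.25 ± 0.06 with etoposide (adjusted p = 6.02e-09 and 2.49e-09 by edgeR).

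TUBB, the main β-tubulin of these cells, had 925.7, 917.5 and 993.4 CPM with tozasertib, 1017, 1063, 1211 and 1103 with etoposide, and 2126, 1874, 1917 and 1763 with DMSO. Its groups did not overlap with DMSO, and it was 2.03-fold lower with tozasertib and 1.75-fold lower with etoposide (log2 fold change -1.02 ± 0.08 and -0.81 ± 0.07 (SE), adjusted p = 1.72e-07 and 6.16e-07 by edgeR). TUBB3, the β-tubulin used as a marker of neurons and often present in melanoma, had 187.4, 181.8 and 210.4 CPM with tozasertib, 202.7, 210.3, 222.5 and 219.9 with etoposide, and 335.3, 281.8, 272.3 and 262.4 with DMSO. It also fell without overlap, with a log2 fold change of -0.58 ± 0.08 (SE) with tozasertib and -0.43 ± 0.08 with etoposide (adjusted p = 6.08e-05 and 0.000333 by edgeR).

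TUBB2A and TUBB2B, β-tubulins of the nervous system that most other tissues make at lower levels, lay nearer to 0. TUBB2B had 46.3, 49.9 and 53.4 CPM with tozasertib, 53.6, 55.9, 62.0 and 57.1 with etoposide, and 70.7, 60.5, 63.2 and 57.9 with DMSO. The tozasertib samples were all below DMSO and the etoposide samples overlapped with it. The log2 fold change was -0.34 ± 0.08 (SE) with tozasertib (adjusted p = 0.00262 by edgeR), which was called lower. With etoposide it was -0.14 ± 0.07 (adjusted p = 0.115 by edgeR), which did not pass unless DMSO replicate 4 was left out (-0.19, adjusted p = 0.0444 by edgeR). These values rest on the estimated division of reads with TUBB2A, and the summed level of both genes, given below, overlapped with DMSO for both drugs.

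TUBB2A had 48.4, 42.1 and 55.7 CPM with tozasertib, 55.4, 57.8, 68.0 and 62.1 with etoposide, and 59.7, 50.3, 51.4 and 45.0 with DMSO. All groups overlapped. Its log2 fold change was -0.08 ± 0.11 (SE) with tozasertib and 0.24 ± 0.10 with etoposide (adjusted p = 0.540 and 0.0594 by edgeR). TUBB2A was called higher with etoposide in 9 of the 21 alternative settings, among them DESeq2 (0.27, adjusted p = 0.0380) and the fit without DMSO replicate 1 (0.31, adjusted p = 0.0124). In TPM the etoposide samples held 48.6, 50.2, 57.5 and 54.6 and the DMSO samples 41.0, 40.4, 40.4 and 37.6, without overlap. Since these genes share many windows, their summed level is the firmer value: it was 94.7, 92.0 and 109.1 CPM with tozasertib, 109.0, 113.7, 130.0 and 119.2 with etoposide, and 130.4, 110.8, 114.5 and 102.9 with DMSO, and all groups overlapped.

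TUBG1, whose product starts new microtubules at centrosomes, had 29.5, 27.9 and 28.2 CPM with tozasertib, 30.85, 32.01, 32.45 and 27.1 with etoposide, and 69.2, 65.3, 67.5 and 64.2 with DMSO. The drug groups overlapped with each other and stood clear of DMSO. It was 2.33-fold lower with tozasertib and 2.17-fold lower with etoposide (log2 fold change -1.22 ± 0.07 and -1.12 ± 0.06 (SE), adjusted p = 8.44e-09 and 7.61e-09 by edgeR). Transcripts that are not protein coding took 14.0% ± 4.09 of its reads with tozasertib, 7.82% ± 2.66 with etoposide and 8.97% ± 2.84 with DMSO (SD), and these shares overlapped.

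**Figure D3:**
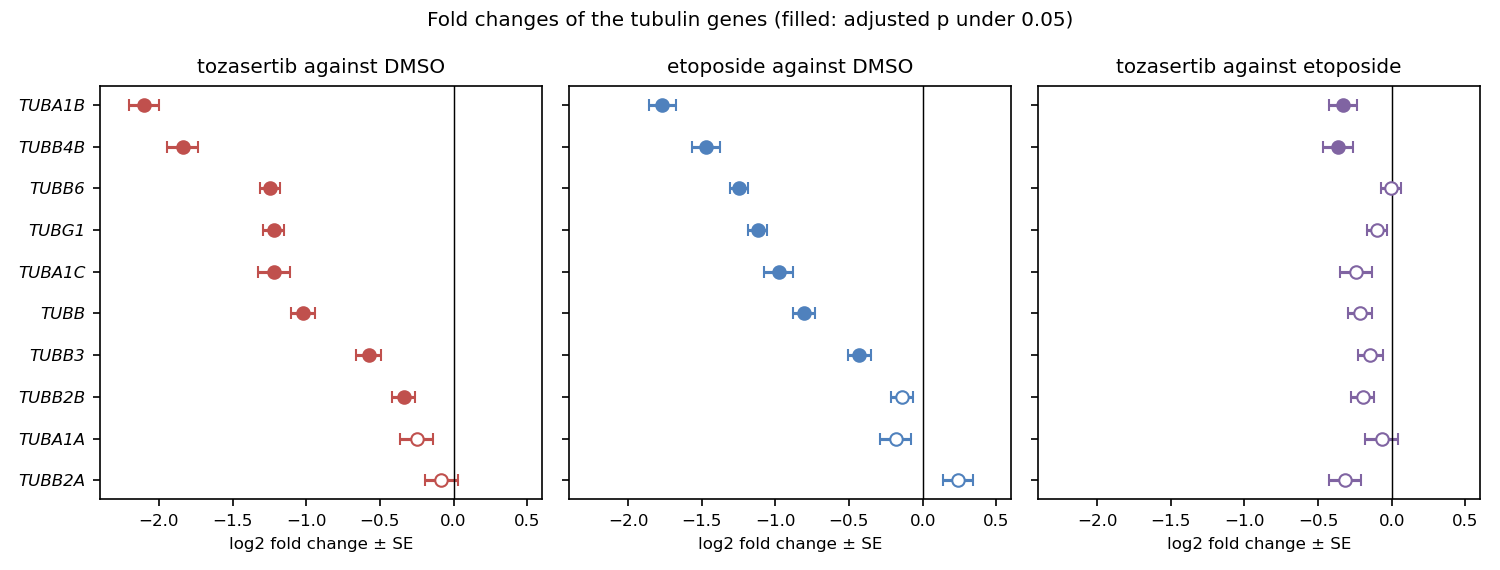
Log2 fold change of each tubulin gene (x axis, whiskers are the SE) for tozasertib against DMSO, etoposide against DMSO and tozasertib against etoposide, genes ordered by the first. Filled points passed an adjusted p under 0.05, and the same 3 genes (TUBB2B, TUBA1A, TUBB2A) lie nearest to 0 for both drugs against DMSO.

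The α and β sums fell side by side. The 3 α genes together held 1799 ± 84.4 TPM with tozasertib, 1910.0 ± 89.2 with etoposide and 3269 ± 116 with DMSO, and the 6 β genes 1199 ± 38.8, 1300.0 ± 69.5 and 2182 ± 30.4 (SD, n = 3, 4 and 4). No drug sample overlapped with DMSO in either sum. The α sum was 0.550 of the DMSO mean with tozasertib and 0.584 with etoposide, and the β sum 0.550 and 0.596. In CPM scaled by TMM both sums fell further. There the α sum was 0.454 of the DMSO mean with tozasertib and 0.512 with etoposide, and the β sum 0.471 and 0.546. The ratio of α to β TPM was 1.499 ± 0.0234 with tozasertib, 1.469 ± 0.0135 with etoposide and 1.499 ± 0.0628 with DMSO, and the groups overlapped. In all, the 10 genes took 0.317% ± 0.0147 of the reads with tozasertib, 0.352% ± 0.0181 with etoposide and 0.642% ± 0.0555 with DMSO.

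**Figure D4:**
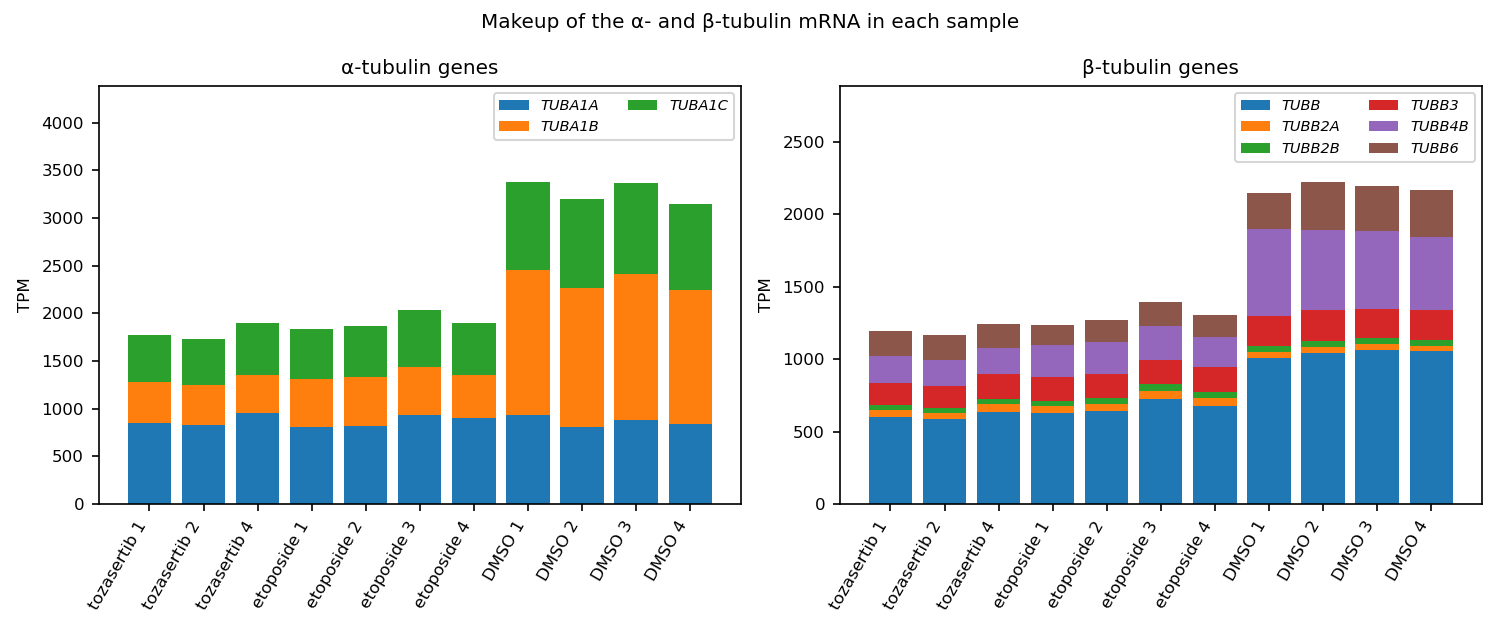
TPM (y axis) of the α-tubulin genes (left) and β-tubulin genes (right) stacked for each sample (x axis). The DMSO bars are taller in both panels, the TUBA1A part lies between 804.8 and 949.4 TPM in every sample, and the TUBA1B and TUBB4B parts are shorter in every drug sample.

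Within the β mRNA, TUBB4B held 15.1% ± 0.358 of the TPM with tozasertib, 17.0% ± 0.731 with etoposide and 25.2% ± 1.78 with DMSO (SD), while TUBB2A and TUBB2B together held 6.85% ± 0.362, 7.25% ± 0.0975 and 3.72% ± 0.0799. TUBB3 held 13.2% ± 0.352, 12.9% ± 0.53 and 9.41% ± 0.384, and TUBB 50.8% ± 0.523, 51.3% ± 0.683 and 47.8% ± 0.932. None of these drug groups overlapped with DMSO. TUBB6 held 14.52%, 14.43% and 13.01% with tozasertib, 10.96%, 12.12%, 11.7% and 11.77% with etoposide, and 11.77%, 14.9%, 14.09% and 14.87% with DMSO. The etoposide samples lay below the tozasertib samples and met DMSO only at DMSO replicate 1.

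By level per length, the order of the genes changed at the top. In TPM, the tozasertib samples ran TUBA1A (875.3), TUBB (609.2), TUBA1C (505.2), TUBA1B (418.1), TUBB4B (181.5), TUBB6 (167.5), TUBB3 (158.8), TUBB2A (43.99), TUBB2B (38.3) and TUBG1 (25.2). The etoposide samples had the same order but for TUBB3 (167.0) above TUBB6 (151.4). With DMSO the order was TUBA1B (1480.0), TUBB (1043), TUBA1C (923.3), TUBA1A (865.9), TUBB4B (549.3), TUBB6 (303.6), TUBB3 (205.2), TUBG1 (50.1), TUBB2B (41.3) and TUBB2A (39.9). Neighbours whose samples overlapped were TUBB6 with TUBB3 and TUBB2A with TUBB2B under tozasertib, and TUBA1C with TUBA1A and TUBB2B with TUBB2A under DMSO. With etoposide no neighbours overlapped. Among all genes, TUBA1B stood at place 321 with tozasertib, 264 with etoposide and 117 with DMSO, and TUBA1A at 154, 154 and 160.

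Between the drugs fewer genes were called. With tozasertib 2 of 10 genes were lower than with etoposide and none was higher, beside 11.1% of all tested genes called in either direction, 5.42% called lower and 5.65% called higher. The CPM of these groups did not overlap for 5 of 10 genes and for 31.0% of all tested genes. The 2 genes called lower were TUBA1B (380.8 ± 8.57 CPM against 479.7 ± 30.6, SD, log2 fold change -0.33 ± 0.10 (SE), adjusted p = 0.0385 by edgeR) and TUBB4B (183.4 ± 3.36 against 236.3 ± 15.9, -0.37 ± 0.10, adjusted p = 0.0345 by edgeR), the same genes that fell most against DMSO. The fold change of the other 8 lay between -0.32 (TUBB2A) and -0.002 (TUBB6), and the median of the 10 was -0.21 beside 0.01 over all genes. The count was not stable: leaving out a single library gave 0 to 6 calls, with 6 without DMSO replicate 1 and 0 without tozasertib replicate 1 or 2, etoposide replicate 2 or 3, or DMSO replicate 3. The direction of TUBB6 turned in 9 settings, with values close to 0.

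Other tubulin genes were scarce in these cells. Of 13 further α, β, γ, δ and ε genes 6 had enough reads to be tested, and the summed level of all 13 was 36.1 ± 2.56 CPM with tozasertib, 38.4 ± 3.90 with etoposide and 37.7 ± 2.67 with DMSO (SD). TUBA4A, an α-tubulin of platelets and neurons, was lower with both drugs (log2 fold change -0.67, adjusted p = 0.000344 with tozasertib, and -0.28, adjusted p = 0.0399 with etoposide by edgeR). TUBG2, the paralog of TUBG1, was higher with tozasertib (15 ± 2.61 CPM against 11.3 ± 0.729 with DMSO, adjusted p = 0.0274 by edgeR), and TUBE1, an ε-tubulin of centrioles, was higher with etoposide (6.46 ± 1.10 CPM against 4.51 ± 0.45 with DMSO, adjusted p = 0.00356 by edgeR).

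Most genes of the machinery that folds tubulin were lower too. Of 23 genes for CCT subunits, prefoldin and tubulin cofactors, 17 were lower and 1 higher with tozasertib and 18 lower and 1 higher with etoposide, beside 29.5% and 30.7% of all tested genes called lower. Their median was -0.56 and -0.50 on the log2 scale. CCT2, a subunit of the chaperonin, fell to 203.4 ± 3.51 CPM with tozasertib and 204.8 ± 4.41 with etoposide, against 309.5 ± 26.1 with DMSO. TBCD, a cofactor that brings α and β chains together, fell to 55.96 ± 0.985 and 60.9 ± 1.03 CPM, against 89.6 ± 5.39 with DMSO. The gene that was higher in both comparisons was TBCEL (37.6 and 38.2 CPM, against 23.9 with DMSO), named after its value was seen, whose product takes dimers apart.

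Most partners of TUBG1 were lower as well. Of 21 genes of the γ-tubulin ring complex and its recruiters, 18 were lower and 2 higher with tozasertib and 17 lower and 1 higher with etoposide, beside 29.5% and 30.7% of all tested genes called lower. Their median was -0.89 and -0.77 on the log2 scale. TUBGCP2, a core subunit, fell to 113.3 ± 1.26 CPM with tozasertib and 115.7 ± 2.25 with etoposide, against 286.1 ± 13.9 with DMSO. MZT1, a small subunit, fell to 31.2 ± 1.14 and 33.3 ± 3.90 CPM, against 74.9 ± 5.35 with DMSO, and HAUS4, of the augmin complex that branches spindle microtubules, to 8.22 ± 0.129 and 9.82 ± 1.02, against 21.2 ± 0.255. Named after their values were seen, the genes that were higher were TUBGCP6 with both drugs (log2 fold change 0.33 and 0.26) and AKAP9 with tozasertib (0.41).

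Of the 12 genes of the autoregulation pathway, 7 were lower and 2 higher with tozasertib and 9 lower and 1 higher with etoposide, with medians of -0.28 for both. Over all tested genes 29.5% and 30.7% were called lower, 30.0% and 27.8% higher, and 59.5% and 58.5% in either direction. TTC5, the sensor of nascent tubulin chains, was slightly higher with both drugs, at 34.1 ± 2.30 CPM with tozasertib and 33.0 ± 1.80 with etoposide, against 29.0 ± 1.52 with DMSO (log2 fold change 0.23 and 0.19, adjusted p = 0.0135 and 0.0289 by edgeR), and was named after its value was seen, like CNOT2, higher with tozasertib (0.15). CNOT9, a subunit of the CCR4-NOT deadenylase, fell to 10.03 ± 1.05 CPM with tozasertib and 9.31 ± 1.93 with etoposide, against 19.6 ± 3.97 with DMSO. These are mRNA levels, and the stability of tubulin mRNA was not measured.

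Of 20 modifying enzymes tested, 6 were higher and 8 lower with tozasertib and 8 higher and 6 lower with etoposide. The shares over all tested genes were 30.0% higher and 29.5% lower with tozasertib, and 27.8% and 30.7% with etoposide. TTLL1, the catalytic subunit of a tubulin polyglutamylase, rose to 8.16 ± 0.215 CPM with tozasertib and 9.16 ± 1.26 with etoposide, against 3.10 ± 0.494 with DMSO. HDAC6, the deacetylase of α-tubulin, fell to 25.9 ± 0.35 and 20.6 ± 1.94 CPM, against 33.6 ± 2.35 with DMSO. Of 23 stabilisers and plus-end proteins 11 were higher and 8 lower with either drug. Over all tested genes 30.0% were higher and 29.5% lower with tozasertib, and 27.8% and 30.7% with etoposide. MAPRE3, an end-binding protein, rose to 35.1 ± 1.83 CPM with tozasertib and 37.6 ± 2.05 with etoposide, against 20.4 ± 2.59 with DMSO, while the spindle factor TPX2 fell to 54.7 ± 4.75 and 86.1 ± 11.3 CPM, against 268.2 ± 14.9.

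STMN1, which binds free tubulin dimers and keeps them out of microtubules, had the lowest fold change of 9 destabilisers tested. Of these 6 were lower and 1 higher with tozasertib and 4 lower and 1 higher with etoposide. Over all tested genes 29.5% and 30.7% were called lower, 30.0% and 27.8% higher, and 59.5% and 58.5% in either direction. STMN1 fell to 88.5 ± 3.28 CPM with tozasertib and 112.6 ± 5.50 with etoposide, against 401.5 ± 60.9 with DMSO (log2 fold change -2.18 ± 0.10 and -1.83 ± 0.09, adjusted p = 1.24e-09 and 1.99e-09 by edgeR). Its relative STMN4, mostly neuronal, rose and stayed low, at 1.21 ± 0.276 CPM with tozasertib and 2.22 ± 0.664 with etoposide, against 0.168 ± 0.0822 with DMSO. Division itself was not measured in these libraries. Of 10 proliferation genes, 10 were lower with both drugs (medians -2.77 and -2.10), beside 29.5% and 30.7% of all tested genes called lower. All 10 were also lower with tozasertib than with etoposide (-0.75), beside 5.42% of all tested genes. The 10 neuron markers, of which 6 were tested, held 609.2 ± 37.4 CPM in sum with tozasertib, 523.9 ± 18.02 with etoposide and 249.2 ± 17.4 with DMSO, most of it from the neurofilament gene NEFL (497.1, 409.3 and 161.4), with ELAVL3 and NEFM near 0. Of the 6 tested, 3 were higher and 1 lower with tozasertib and 3 higher and 2 lower with etoposide. The shares over all tested genes were 30.0% higher and 29.5% lower with tozasertib, and 27.8% and 30.7% with etoposide. SNAP25 was lower with both drugs (1.46 and 2.26 CPM, against 4.51 with DMSO) and SYP with etoposide (1.20 CPM, against 2.58 with DMSO). Their part in the tubulin values was not tested.

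**Figure D5:**
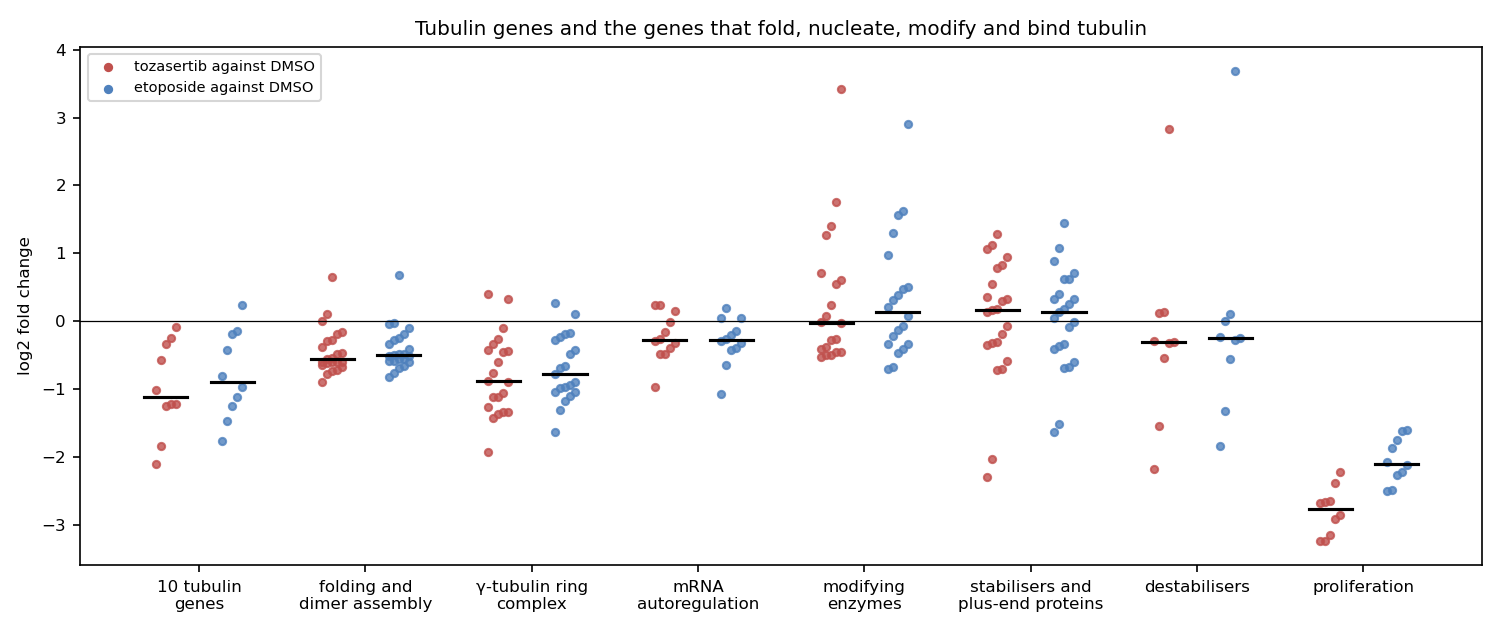
Log2 fold change against DMSO (y axis) of the 10 tubulin genes and of each tested gene in 7 lists (x axis), for tozasertib (red) and etoposide (blue). Points are genes and black lines are medians, which lie at -1.12 and -0.89 for the tubulin genes and at -0.89 and -0.77 for the γ-tubulin ring complex.

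The profile of each tubulin gene over the 11 samples was compared with those of 13538 protein-coding genes tested, as the root mean square difference of centred log2 CPM. The nearest gene to TUBA1B was STMN1, at 0.051, before PLP2 (0.074) and FEN1 (0.087). The nearest to TUBB was LMNB2 (0.042), and to TUBA1A it was CDK4 (0.040), followed by C1QBP (0.045). TUBB6 had TUBGCP2 (0.065) and NFYB (0.067) as its nearest, and TUBG1 had NFYB (0.068). For TUBB4B it was TECR (0.067), for TUBA1C CALM3 (0.066), for TUBB3 GTF3A (0.044), for TUBB2A RTL8C (0.072) and for TUBB2B PLIN3 (0.036). These are descriptions over samples that share the same 3 groups.

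Promoters of all 10 genes were matched in the RefSeq table for GRCh38.p14, which gives 15 windows for them, each with 250 bases before and 50 after an annotated start. Those of the genes with the lowest fold changes (TUBA1B and TUBB4B) and of the genes with none called (TUBA1A and TUBB2A) are shown, 5′ to 3′ on the strand of the gene. Capitals mark 4 motifs searched on both strands: CCAAT (bound by NF-Y), the element TTTGAA found in many cell cycle promoters, the GC box GGGCGG and the box TATAAA.
TUBA1B, chr12:49131346-49131645, minus strand: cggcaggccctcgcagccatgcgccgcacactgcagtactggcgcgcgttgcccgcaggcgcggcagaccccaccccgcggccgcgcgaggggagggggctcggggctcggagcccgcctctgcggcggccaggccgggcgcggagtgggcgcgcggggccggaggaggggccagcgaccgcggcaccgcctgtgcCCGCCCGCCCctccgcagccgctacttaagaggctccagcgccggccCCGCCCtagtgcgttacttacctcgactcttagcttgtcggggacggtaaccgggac
TUBB4B, chr9:137241037-137241336, plus strand: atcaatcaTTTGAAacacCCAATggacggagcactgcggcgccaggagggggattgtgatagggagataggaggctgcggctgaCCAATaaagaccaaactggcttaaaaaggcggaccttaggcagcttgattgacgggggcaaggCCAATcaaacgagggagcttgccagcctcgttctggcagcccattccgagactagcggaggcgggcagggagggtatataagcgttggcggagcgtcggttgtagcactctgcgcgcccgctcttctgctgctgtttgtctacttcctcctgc
TUBA1A, chr12:49189031-49189330, minus strand: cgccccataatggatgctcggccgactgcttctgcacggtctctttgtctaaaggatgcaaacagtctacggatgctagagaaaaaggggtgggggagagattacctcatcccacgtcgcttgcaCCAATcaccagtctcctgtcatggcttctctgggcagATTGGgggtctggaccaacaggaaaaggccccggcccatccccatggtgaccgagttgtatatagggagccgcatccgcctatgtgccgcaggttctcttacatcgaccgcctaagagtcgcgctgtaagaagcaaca
TUBB2A, chr6:3157495-3157794, minus strand: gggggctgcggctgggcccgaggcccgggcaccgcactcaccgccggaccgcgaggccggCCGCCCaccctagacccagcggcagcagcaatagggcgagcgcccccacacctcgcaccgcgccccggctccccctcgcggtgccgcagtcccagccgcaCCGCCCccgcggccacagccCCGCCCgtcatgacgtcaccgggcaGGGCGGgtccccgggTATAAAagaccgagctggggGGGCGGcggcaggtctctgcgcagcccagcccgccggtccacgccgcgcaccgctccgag
CCAAT or its reverse complement stood in 10 of the 15 windows, from 8 of the 10 genes, and in 34.6% of all 35116 promoter windows. The first 2 windows of TUBA1C overlap and hold the same CCAAT site. Shares over all promoters are per window, so they cannot be set against counts of genes, some of which have several windows. TUBB4B had 3 copies, at -232, -166 and -103 bases from the start, and TUBA1A 2, at -125 and -88, while TUBA1B and TUBB2A had none. TTTGAA was found in 4 of the 15 windows, from TUBA1C and TUBB4B, and in 15.2% of all promoters. GGGCGG was found in 9 of the 15 windows, from 8 genes, among them TUBA1B with 3 copies, of which those at -54 and -50 overlap, and TUBB2A with 5, and in 45.0% of all promoters. TATAAA was found in 1 of the 15 windows, that of TUBB2A at -30, and in 11.5% of all promoters. A match is a stretch of letters and says nothing of binding, and no conclusion is drawn from a window without one.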

How the data were processed

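RNA from 11 samples of SK-MEL-103 cells was selected for poly(A), and the authors sequenced strand-specific libraries. Tools named in the submitters' processing notes are Salmon 1.9.0, cutadapt 4.7, DESeq2 1.40.2 and R 4.4.2, with the build GRCh38, while the study's methods name another aligner. Per the file headers, the deposited tables give, for each transcript, an estimated count of reads, TPM and an effective length. The authors' estimated counts were not normalized, and their TPM were scaled by effective length and to the same sum in each sample. Which options and transcript release Salmon ran with is not given in the sources used here.

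Identifiers without version joined them to genes of GENCODE 44. Of 251645 transcripts 437 had no match, with 0.136% to 0.163% of the reads, and these were dropped. The sums of estimated counts over 61566 genes were rounded. No replicates agreed within sampling noise. edgeR 4.0.16 (R 4.3.3) was fitted over all 11 samples with TMM scaling, and filterByExpr kept 17039 genes. The quasi-likelihood test was two-sided, with Benjamini-Hochberg adjustment over all genes and calls at an adjusted p under 0.05. TPM were summed to genes for levels per length, and sums, shares and ratios were described without a test. The 72-base windows were compared with GENCODE 44 transcripts, and coding sequences were aligned with Biopython 1.88, scored 1 for a match and -1 for a mismatch. The 10 genes and all gene lists were chosen with earlier results of these data known. Named beside the 10 were, from each list, up to 3 genes with the smallest adjusted p for each drug against DMSO. The tested protein-coding gene nearest in profile was named for each of the 10, and up to 3 were named for some. The pipeline was tested on simulated data. The 21 alternatives covered scaling, test, filter, samples, transcript length and biotype, shared reads, replicate block and leaving out each library.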

Additional observations from a re-analysis of the deposited data

How the results depend on the processing

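All 7 genes called lower with etoposide and all 8 called lower with tozasertib against DMSO kept their direction and stayed called in each of the 21 alternatives. Counts ran from 7 to 8 with etoposide and from 8 to 9 with tozasertib, also with a library left out. Of 630 values for single genes, 577 kept direction and side of the threshold, 23 passed it only in the alternative, 19 no longer passed and 11 changed sign. The comparison of tozasertib with etoposide was the unstable one. Its 2 calls became 4 with DESeq2, 5 with these groups fitted alone, 3 with no filter, 1 with the replicate block, 1 with protein-coding transcripts only and 0 with length-scaled counts, and 0 to 6 with a library left out. TUBA1B then had an adjusted p up to 0.136 and TUBB4B up to 0.127 by edgeR. Signs changed for TUBB2A with tozasertib against DMSO (0.012 with library size alone, and -0.192 to 0.010 with a library left out) and for TUBB6 with tozasertib against etoposide (0.037 with library size alone, 0.010 with these groups alone, 0.008 with the replicate block, 0.064 with length-scaled counts, 0.005 with protein-coding transcripts only, and -0.032 to 0.024 with a library left out). The cause was not tested. Library size alone moved the median of all genes for tozasertib against DMSO to 0.111, beside 0.023, and its calls to 5912 higher and 4237 lower, beside 5111 and 5020. For tozasertib against etoposide, calls over all genes were 963 higher and 923 lower, 1072 and 754 with library size alone, and 870 and 1147 with DESeq2 size factors. Over all genes that comparison also had 1798 and 1780 with its groups alone, 564 and 470 without tozasertib replicate 1, and 1539 and 1856 without DMSO replicate 1. Same-numbered samples correlated at -0.097 to 0.23, with 2 of 10 pairs over 0.1, and the 30 other pairs at -0.207 to 0.161. The numbers were therefore not taken as pairs, and the replicate block changed no call against DMSO. Between the drugs, same-numbered etoposide and tozasertib samples correlated at 0.23, 0.091 and 0.12, and differently numbered ones at -0.207 to 0.161. Of the differently numbered pairs only etoposide replicate 3 with tozasertib replicate 4 (0.161) was positive. For that comparison, where the block left 1 of 2 calls, these values do not decide whether the numbers are pairs.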
